A study of Arabidopsis thaliana with 14 samples.

Results

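ALC (ALCATRAZ, AT5G67110) and SPT (SPATULA, AT4G36930) are a pair of related Arabidopsis thaliana genes that encode basic helix-loop-helix (bHLH) transcription factors. The regions described here are those in which either gene lies at the region's centre, or is the nearest gene on one side with a distance of 5000 bp or less. This rule found 13 of 43690 deposited regions, namely 3 of 19893 for gFLM, 7 of 13791 for iFLMbeta and 3 of 10006 for iFLMdelta. A further 1 gFLM and 1 iFLMdelta region have centres within that distance of ALC but beyond AT5G67120, the gene they are named for, and were not used. Over all deposited regions the median log2 ratio of GFP to control reads was -0.31 for gFLM, -0.15 for iFLMbeta and -0.03 for iFLMdelta. The regions were chosen by the authors' peak calling in the same libraries, by criteria not given in the sources used here. Read counts, ratios and q-values of GFP against control are therefore given as a description, with no test.

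Binding of the MADS-box protein FLM was measured by chromatin immunoprecipitation with sequencing in whole Columbia-0 seedlings. Plants with GFP-tagged FLM were set against plants with untagged FLM, with an antibody against GFP; the antibody label is blank for the second gFLM-GFP library. The gFLM seedlings were 15 days old and kept at 16 °C, with 3 libraries of tagged and 3 of untagged plants. Those of the splice variants iFLMbeta and iFLMdelta were 10 days old and kept at 23 °C, with 2 tagged and 2 untagged libraries for either variant. Long days and collection at zeitgeber time 8 h were common to all. A comparison of gFLM with a variant therefore mixes construct, age and temperature, which cannot be told apart. The labels do not say what drives each construct, what the prefixes g and i mean, or whether the libraries came from separate plant pools. The spread given here is that between libraries and may be technical.

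ALC is known for its role in the fruit, where it is needed to form the separation layer at the valve margin along which the silique opens. SPT is needed for the tissues that arise from the carpel margins, such as style, stigma and transmitting tract, and it also restrains seed germination and the growth of cotyledons and leaves. In the fruit, the MADS-box proteins SHP1 and SHP2 act upstream of the valve margin genes, ALC among them. FLM, a repressor of flowering, belongs to the MADS-box family, whose members bind a DNA element called the CArG box. Neither flowers nor fruits were sampled here, and transcript levels were not part of these data.

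Both genes had 1 strongly enriched region, found for gFLM and again for iFLMbeta, but in different places. That of ALC lay across the start of the gene. That of SPT lay almost 5 kb upstream, in the middle of a long intergenic stretch. In the gFLM libraries GFP reads exceeded control reads 8.80-fold at ALC and 4.52-fold at SPT (geometric means of the scaled ratios), and in the iFLMbeta libraries 2.98-fold and 2.43-fold. These folds depend on the 1 read added to each count, and with 5 reads added the gFLM folds were 5.20 and 2.47. The other 9 regions held at most 29 GFP reads in any library and did not reach the threshold used below in all replicates, and the 3 iFLMdelta regions had mean ratios near or below 0 on the log2 scale.

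**Figure D1:**
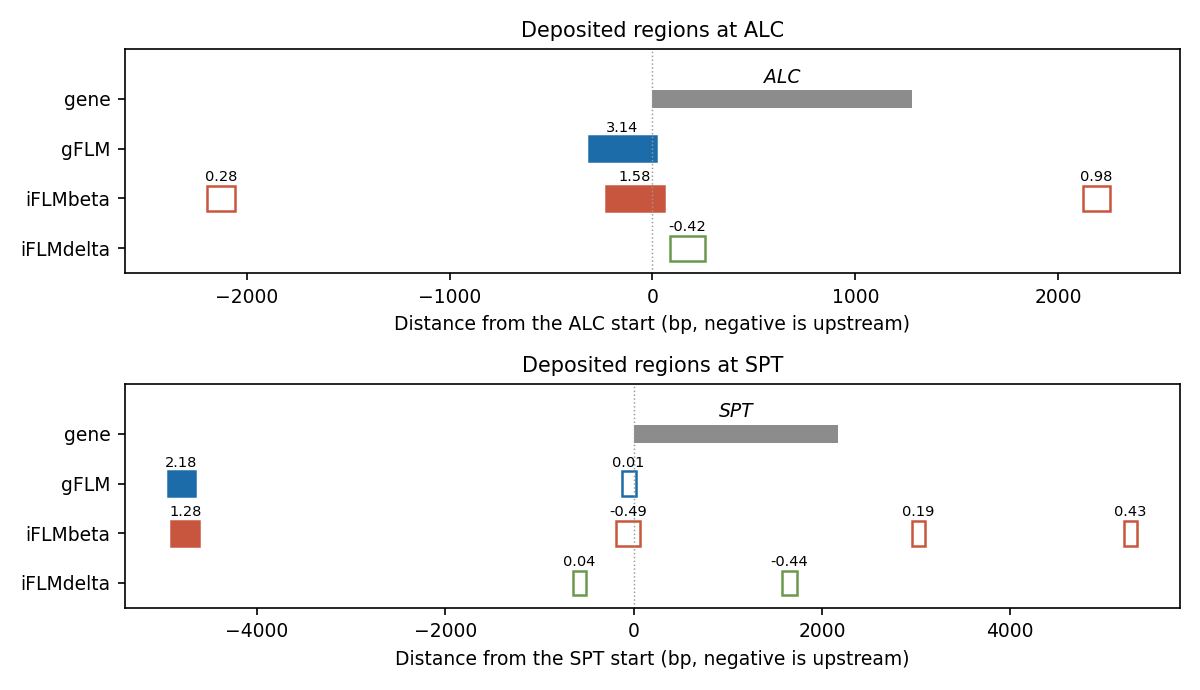
Positions of the 13 regions relative to the start of ALC (top) and SPT (bottom), in bp, with negative values upstream and the gene as a grey bar. Filled boxes reached a q-value of at most 0.05 in all replicates, open boxes did not, and the number above each box is its mean log2 GFP to control ratio; filled boxes are found at the ALC start and far upstream of SPT, for gFLM and iFLMbeta.

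The ALC region of gFLM spans 330 bp (chromosome 5, 26786369 to 26786698, TAIR10). ALC is on the minus strand and starts at 26786384, as the deposited distances give it, so that the region reaches from 15 bp inside the gene to 314 bp upstream, with its centre 150 bp upstream. The centre is in no gene, and the next gene on the other side, AT5G67120, ends 1296 bp away. The 3 GFP libraries held 275, 32 and 143 reads here, and the 3 control libraries 8, 1 and 12. As reads per 10000 in the deposited regions of each library, this was 6.28, 4.28 and 9.08 with GFP and 0.438, 0.578 and 0.605 in the controls. Every GFP library was above every control library, and the controls lay close together. The share of all deposited regions with such a separation was not computed. The region has low q-values for this same contrast, so nothing is read from the separation, here or at the regions described next. The log2 ratios of replicates 1, 2 and 3 were 3.68, 1.93 and 3.80, with a mean of 3.14 ± 1.05 (SD, n = 3). The lowest ratio came from replicate 2, the library pair with the fewest reads (74740 with GFP and 17293 in the control over all deposited regions, against at least 157423 and 182620 in the others), where a single control read leaves an exact 95% interval of 0.31 to 8.24 (Clopper-Pearson, no pseudocount). Without that replicate the mean was 3.74. The authors' deposited table ranks this region 16 and gives it q-values of 7.02e-43, 2.93e-05 and 3.05e-54. A rank of 16 is within the first 0.0804% of the list.

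For iFLMbeta a region of 284 bp lay at the same place (chromosome 5, 26786329 to 26786612), shared 244 bp with that of gFLM and had its centre 63 bp closer to ALC, 87 bp upstream of the start. It reaches 55 bp into the gene. The GFP libraries held 65 and 99 reads and the controls 9 and 11. Scaled to 10000 reads in deposited regions, these were 3.34 and 5.44 with GFP against 0.830 and 2.08 in the controls, again without overlap. The log2 ratios were 1.88 and 1.27, with a mean of 1.58 ± 0.43 (SD, n = 2). The authors' deposited table ranks it 34, with q-values of 3.31e-10 and 2.18e-09. For this variant GFP and control columns are matched by number alone, since the columns name no single library.

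The SPT region of gFLM spans 295 bp (chromosome 4, 17409178 to 17409472). SPT is on the plus strand and starts at 17414127, so that the centre lies 4802 bp upstream of it. On the other side is the end of AT4G36925, 4874 bp from the centre, and the stretch between both genes measures 9675 bp. The GFP libraries held 162, 28 and 43 reads and the controls 12, 0 and 20. Per 10000 reads in deposited regions the GFP libraries stood at 3.70, 3.75 and 2.73, and the controls at 0.657, 0 and 1.01. The GFP libraries were again all above the controls, and their spread was smaller than at ALC. The log2 ratios were 2.39, 2.75 and 1.40, with a mean of 2.18 ± 0.70 (SD, n = 3) and of 1.89 without replicate 2. In replicate 2 the control held no read, and the exact 95% interval of that ratio has a lower bound of 0.72 and no upper one. The authors' deposited table ranks the region 46, with q-values of 5.17e-19, 1.51e-05 and 3.54e-07.

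The iFLMbeta region at this place spans 304 bp (chromosome 4, 17409212 to 17409515), overlaps that of gFLM by 261 bp and has its centre 39 bp closer to SPT, at 4763 bp. It held 71 and 80 GFP reads against 19 and 7 control reads. That is 3.64 and 4.40 per 10000 with GFP and 1.75 and 1.33 in the controls, and the groups did not overlap. The log2 ratios were 1.00 and 1.56, with a mean of 1.28 ± 0.39 (SD, n = 2). In the authors' deposited table it ranks 41, with q-values of 4.73e-07 and 9.92e-09, so that ALC at rank 34 and SPT were close to each other in the iFLMbeta list.

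**Figure D2:**
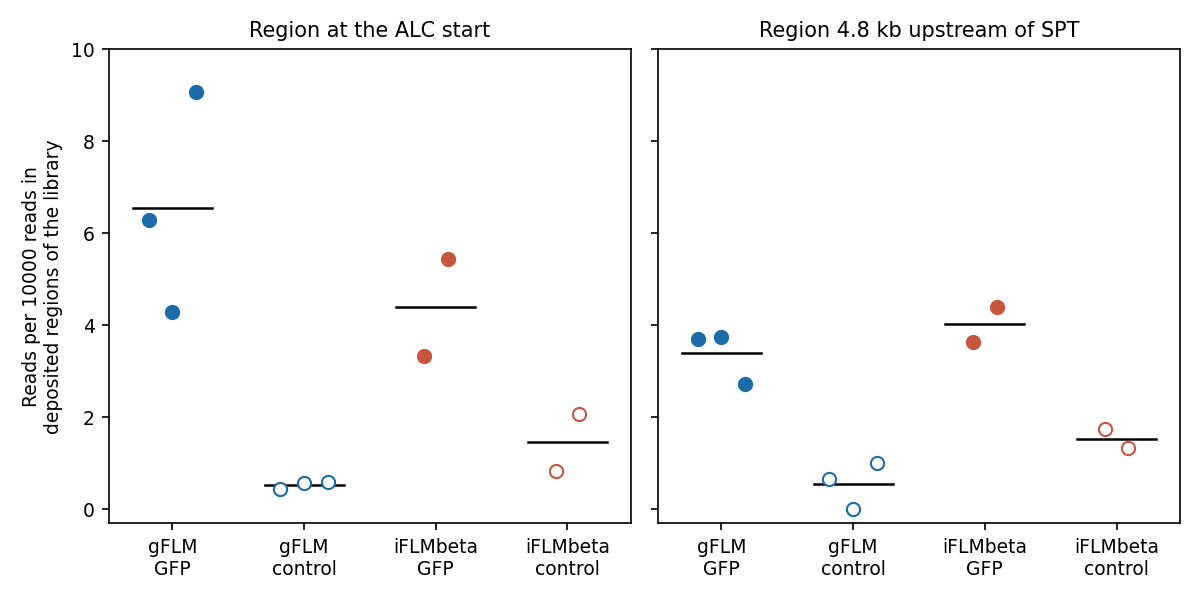
Reads per 10000 reads in all deposited regions of a library (y axis) at the ALC start (left) and at the region upstream of SPT (right). Each point is a library, filled for GFP and open for control, and lines are group means; at both regions the GFP libraries of gFLM and of iFLMbeta lie above all controls of the same construct.

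These 4 regions passed a threshold, a q-value of at most 0.05 in all replicates, which made 2 of 3 regions for gFLM and 2 of 7 for iFLMbeta. Of all deposited regions, 0.799% of those of gFLM and 1.46% of those of iFLMbeta passed. Since ALC and SPT were chosen with earlier results of these data known, nothing is read from these shares. Among the 159 passing gFLM regions, whose median log2 ratio was 1.68, the ALC region was above 91.8% and the SPT region above 75.5%. Among the 202 passing iFLMbeta regions, with a median of 1.01, ALC was above 79.7% and SPT above 66.3%.

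The places of the regions were not used by the q-values, but the rule that found the ALC and SPT regions used the distance to the gene. A centre within 200 bp upstream of a gene start, as at ALC, was found for 29 of 159 passing gFLM regions (18.2%) and 39 of 202 passing iFLMbeta regions (19.3%), against 19.9% and 7.06% of all deposited regions. A centre in no gene and over 4000 bp from the nearest gene on both sides, as at SPT, was found for 2 of the 159 passing gFLM regions (1.26%) and 3 of the 202 passing iFLMbeta regions (1.49%). In the full lists this share was 0.95% and 1.53%. A position as at ALC was thus common among passing regions and one as at SPT uncommon. In gFLM both shares were near those of all deposited regions, so nothing about ALC or SPT is read from them. In iFLMbeta only the distal share was near that of all deposited regions. The limits of 200 and 4000 bp take in the ALC and SPT regions, so the counts include them by construction and no rarity is read from them. The SPT stretch holds 1 of the 2 distal regions that passed in gFLM and 2 of the 3 in iFLMbeta.

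The second of these in iFLMbeta is just beyond the limit of 5000 bp, next to the region already described. It spans 154 bp (chromosome 4, 17408868 to 17409021), lies 5182 bp from SPT and is separated from the SPT region by 190 bp. It held 30 and 25 GFP reads against 8 and 3 control reads, with log2 ratios of 0.94 and 0.92 (mean 0.93 ± 0.02, SD, n = 2). The gFLM table has a region of 190 bp at the same place (17408867 to 17409056), 5165 bp from SPT and 121 bp from its neighbour. There the GFP libraries held 57, 9 and 13 reads and the controls 5, 5 and 7. The log2 ratios were 2.01, -1.37 and 1.14, so that replicates 1 and 3 were above 0 and replicate 2 below. The authors' deposited table gives q-values of 5.53e-06, 0.644 and 0.0354 for gFLM and of 0.00594 and 0.0252 for iFLMbeta. The regions nearest to the limit on its inner side, at 4802 and 4763 bp, had the higher mean ratios of 2.18 and 1.28. Another deposited region lay within 200 bp of 2.52% of passing gFLM regions and of 2.48% of passing iFLMbeta regions, against 6.07% and 3.13% of all.

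At the SPT start itself little was found. The gFLM region there (chromosome 4, 17413998 to 17414147) has its centre 54 bp upstream of SPT and held 11, 5 and 6 GFP reads against 3, 2 and 4 control reads. Its log2 ratios were 0.32, -1.11 and 0.82 (mean 0.01 ± 1.00, SD, n = 3), and the mean without replicate 2 was 0.57. The iFLMbeta region (17413938 to 17414191), centred 62 bp upstream, held 19 and 29 GFP reads against 23 and 7 control reads. Its log2 ratios were -1.11 and 0.12 (mean -0.49 ± 0.87, SD, n = 2). In both constructs the ratios fell on both sides of 0.

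The remaining 4 iFLMbeta regions are short, 132 to 136 bp, and lie in neighbouring genes. A coding exon of ICU2 (AT5G67100), which encodes the catalytic subunit of DNA polymerase alpha, had a region 910 bp past the end of ALC, with 7 and 8 GFP reads against 2 and 0 control reads. Its mean log2 ratio was 0.98 ± 0.58 (SD, n = 2), the highest of the 9 regions that did not pass, above 97.7% of all deposited iFLMbeta regions and close to the median of 1.01 of the passing ones. A coding exon of AT5G67120, 2129 bp upstream of ALC, had 10 and 9 GFP reads against 5 and 1 control reads, at 0.28 ± 0.36 (SD, n = 2). The other two are in NAPRT1 (AT4G36940), a nicotinate phosphoribosyltransferase gene downstream of SPT. The one in an intron, 856 bp past the end of SPT, had 7 and 10 GFP reads against 10 and 0 control reads, and its replicates gave -1.30 and 1.68. The one in a coding exon, 3105 bp past SPT, had 13 and 7 GFP reads against 4 and 1 control reads, at 0.43 ± 0.30 (SD, n = 2). All 4 rest on at most 13 reads per library.

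For iFLMdelta 0 of 3 regions passed, where 0.41% of the whole table did. The ALC region (chromosome 5, 26786127 to 26786297) is centred in a coding exon, 172 bp downstream of the start. It held 26 and 9 GFP reads against 8 and 14 control reads, with log2 ratios of 0.27 and -1.11. It ends 31 bp before the iFLMbeta region at the ALC start and 71 bp before that of gFLM, so that it does not measure iFLMdelta at that site. At SPT, a region 579 bp upstream of the start (chromosome 4, 17413479 to 17413617) held 13 and 13 GFP reads against 3 and 12 control reads, with ratios of 0.50 and -0.41. A region in a coding exon of SPT, 1656 bp downstream of the start (17415704 to 17415862), held 21 and 7 GFP reads against 12 and 6 control reads, with ratios of -0.55 and -0.33. None of the 3 overlaps a region of the other constructs. The iFLMdelta table lists no region within the window upstream of SPT where gFLM and iFLMbeta passed, and a region that is not listed has no count, so occupancy by iFLMdelta there cannot be given.

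**Figure D3:**
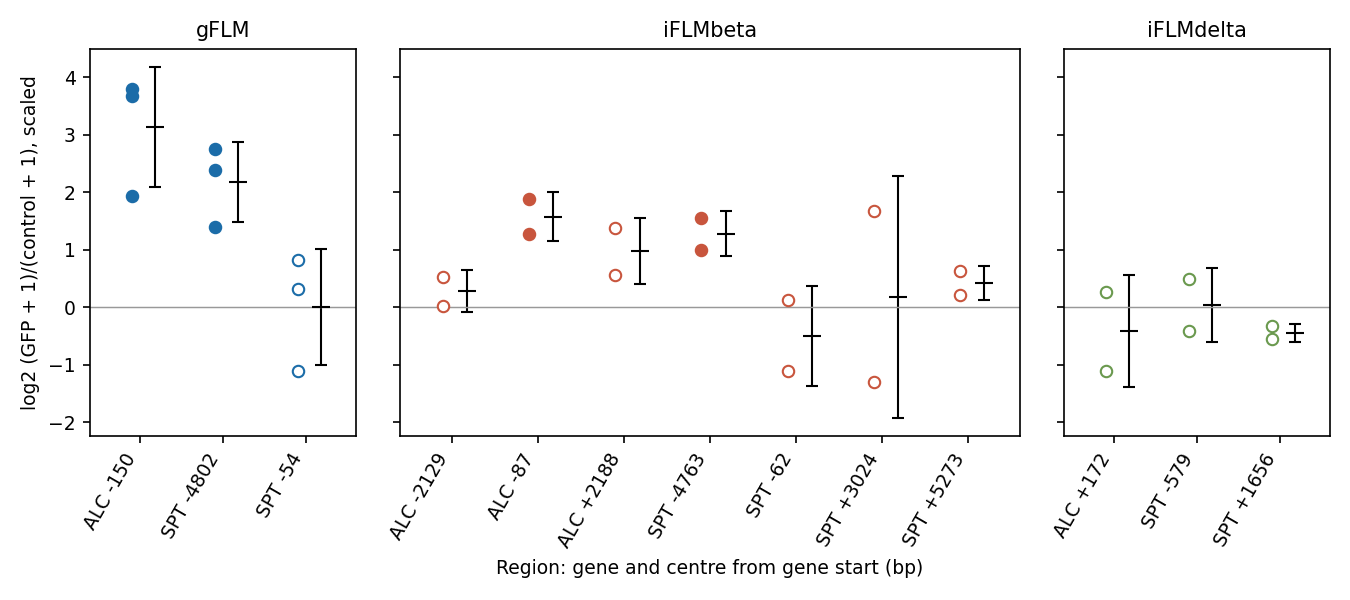
Scaled log2 ratio of GFP to control reads (y axis) in each replicate of the 13 regions, named by gene and by the distance of the centre from the gene start in bp; black lines are means and bars SDs over 3 replicates for gFLM and 2 for each variant. Filled points belong to the 4 regions that passed, and all of them lie above 0, from 1.00 to 3.80.

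The constructs were compared where a region was deposited for both, which was the case for 3 pairs, all between gFLM and iFLMbeta. The ratio at the ALC start was higher in gFLM by 1.80 on the log2 scale (SE 0.76, 95% interval 0.29 to 3.32), with an unadjusted p of 0.0202 by edgeR's quasi-likelihood test of the interaction. After Benjamini-Hochberg adjustment over 1955 regions the p was 0.9999, so the difference was not called. Without the second iFLMbeta control library it was 1.05. At the SPT region upstream the difference was 0.58 (SE 0.73, interval -0.88 to 2.05, adjusted p = 0.9999 by edgeR), and at the SPT start 0.86 (SE 0.93, interval -0.996 to 2.71, adjusted p = 0.9999 by edgeR). These intervals are wide and do not show that the constructs were alike. Of the 1955 regions 0 were called (0%), with 33 at an unadjusted p under 0.05 by edgeR, and 0 and 14 by DESeq2. Both 33 and 14 are below the share of 0.05 of the regions that would be found with no difference. Both tests thus look conservative on these counts, and 0 calls say little about the constructs. The scaled mean ratios, taken directly, were higher in gFLM by 1.56 at ALC and by 0.90 at SPT upstream, and the median over the 109 regions passing in both constructs was 0.80, with gFLM higher at 93 of them. Over all 2331 regions deposited for both the median was -0.02, with gFLM higher at 1133. Passing was set within each construct, over 3 replicates for gFLM and 2 for iFLMbeta. The median of the 109 regions is therefore no test of the constructs.

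**Figure D4:**
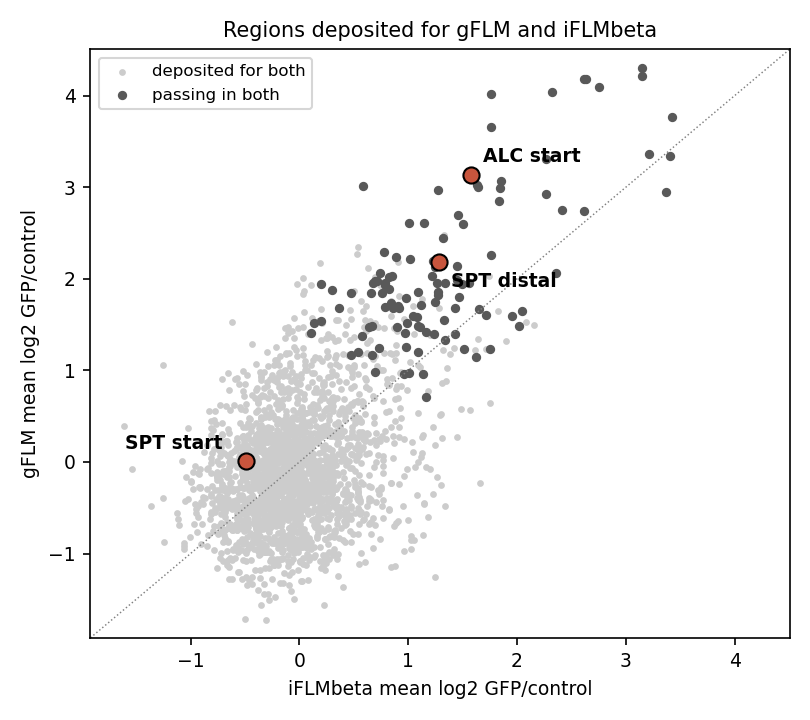
Mean log2 GFP to control ratio in iFLMbeta (x axis) and gFLM (y axis) at the 2331 regions deposited for both, with the 109 that passed in both in dark grey and equal ratios on the dotted line. ALC (1.58 and 3.14) and the upstream SPT region (1.28 and 2.18) lie among the dark points above the line, and the SPT start lies in the bulk of the light ones.

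Regions with the most similar pattern were found by the Euclidean distance between the 5 replicate log2 ratios of gFLM and iFLMbeta, among 1372 regions with a mean of at least 10 GFP reads in each construct. For the ALC start the nearest were a region in the 3' UTR of AT4G35510 (distance 1.53), one 38 bp past the end of AT1G75390 (1.66) and one between the genes RS2Z32 and ABCG20 (1.82). For the upstream SPT region they were a region 55 bp past the end of BON2 (distance 0.66), one 2049 bp past the end of NCED3, which encodes an enzyme of abscisic acid synthesis (0.75), and one 1503 bp upstream of TTL4 (0.89). The region at the SPT start lay nearest to one past the end of GA20OX3, a gibberellin synthesis gene (0.25), among 1373 regions. It was followed by one between PFD3 and WRKY48 (0.61) and one in the 3' UTR of NPY4 (0.69). The SPT start region itself held 11, 5 and 6 GFP reads in gFLM, a mean below the 10 asked of the others. All 3 distances at ALC exceeded those at SPT upstream.

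Other genes of carpel and fruit development were read by the same rule. Of 28 such genes, 2 had a passing region in gFLM (7.14%), 1 in iFLMbeta (3.57%) and 0 in iFLMdelta, where 1.11%, 1.44% and 0.273% of 27432 protein-coding genes had one. SHP2, a MADS-box gene upstream in the valve margin pathway, had its region 360 bp upstream of the start in gFLM, with 117, 22 and 28 GFP reads against 18, 0 and 22 control reads (1.48 ± 0.88, SD, n = 3). In iFLMbeta it had 32 and 48 against 3 and 3 (2.01 ± 0.26, SD, n = 2). SHP2 was known from earlier results when the list was written. The other was NGA3, a B3-domain gene of style development, with a region in an intron of its neighbour AT1G01020, 3268 bp past the end of NGA3 (chromosome 1, 8239 to 8523). It held 110, 26 and 32 GFP reads against 4, 1 and 12 control reads in gFLM (2.18 ± 0.90, SD, n = 3), and 48 and 36 against 31 and 6 in iFLMbeta (0.19 ± 0.60, SD, n = 2), where it did not pass. No passing region was found in any construct for the other genes of the list, among them IND, FUL, RPL, AG, STK and CRC. The same held for the HEC genes, which encode bHLH partners of SPT. Of the 28 genes, 23 had a deposited region in gFLM and 23 in iFLMbeta. Some rows lack a gene name or distance, so a passing region at a gene of this list or the next could be missed. A deposited region alone was common, at 74.8% and 61.4% of all protein-coding genes.

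ALC and SPT belong to the same bHLH group as the phytochrome-interacting factors, which carry light and temperature signals. Of 9 such genes, 1 had a passing region in gFLM (PIF3, 11.1%), 2 in iFLMbeta (PIF3 and PIF6, 22.2%) and 0 in iFLMdelta, beside 1.11%, 1.44% and 0.273% of all protein-coding genes. PIF3 and PIF4 were known from earlier results when this list was written. The gFLM region in an intron of PIF3 had a mean ratio of 1.51 ± 0.92 (SD, n = 3). In iFLMbeta the ratio there was 0.13 ± 0.23 (SD, n = 2), with 50 and 37 GFP reads against 28 and 8 control reads. It passed with the authors' q-values of 0.0401 and 0.0373 despite little scaled enrichment, so passing alone is not read as binding. The PIF6 region, in a coding exon, held 185 and 128 GFP reads against 84 and 14 control reads in iFLMbeta (0.80 ± 0.73, SD, n = 2), with no overlapping gFLM region listed. An overlapping iFLMdelta region held 41 and 46 GFP reads against 35 and 18 control reads (-0.15 ± 1.33, SD, n = 2) and did not pass. PIF3 and PIF6 had lower mean ratios in iFLMbeta than ALC and SPT. By rank the order differed for PIF6: the authors' deposited table ranks its region 27, ahead of ALC at 34 and SPT at 41.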

How the data were processed

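ALC and SPT, the gene lists and the comparisons were chosen with earlier results of these data known. For each construct the authors deposited a region table. Per the file headers, it holds raw read counts of each library, q-values adjusted by Benjamini and Hochberg in each replicate and the log2 of their rank product. Coordinates follow TAIR10, as named in the submitters' processing notes. Aligner, peak caller and the treatment of duplicates: not given in the sources used here. Libraries were amplified by PCR, per the labels' protocols, without mention of molecular identifiers, so the exact intervals cover counting error only. Tabs inside quoted fields had cut some rows short, and 1218, 278 and 169 rows of gFLM, iFLMbeta and iFLMdelta lack a gene name or distance. The count columns of iFLMbeta and iFLMdelta name no single library, and 0 columns of counts were left without a sample or group.

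Ratios are on a log2 scale: 1 was added to each GFP and control count, and each library was divided by its sum over the deposited regions. Totals of mapped reads are not in the tables, so these sums, 17293 to 437712 reads per library, are not sequencing depths. Regions deposited for gFLM and iFLMbeta with 1 bp or more in common were compared with edgeR 4.0.16 in R 4.3.3. The settings were the quasi-likelihood test, TMM, filterByExpr, an interaction term and Benjamini-Hochberg adjustment. The fit was also run on simulated counts, but that outcome is not given here and nothing is read from it. DESeq2 1.42.0 was an alternative. Intervals of that difference are approximate, from the test's F statistic. The gFLM replicate numbers were checked for pairing by the deviations of GFP and control libraries from their group means, across 1955 regions. Same-numbered libraries had weak positive correlations (r = 0.325, 0.116 and 0.122 for replicates 1, 2 and 3). Those with unlike numbers ran from -0.217 to 0.047, where deviations from a mean of 3 tend to be negative. The pairing is thus uncertain, and the fit with the numbers as a block was run as an alternative. Other alternatives changed the pseudocount, scaling, controls, thresholds, filter and overlap, or left out each replicate or library. Named genes were ALC, SPT, genes that share a region with them, listed genes with a passing region, and for each region deposited for both constructs the 3 regions with the nearest ratios. No genome sequence was used here, so the planned search for motifs was not run.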

Additional observations from a re-analysis of the deposited data

How the results depend on the processing

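Of 121 values recomputed under alternatives, 115 were labelled unchanged and 6 moved. Unchanged means within 1 SD of the reported ratio, on the same side of the threshold or within 1.5 times the count. Not all 121 were free to move, since the iFLMdelta count of 0 could not fall. Differences between constructs were judged only by an adjusted p by edgeR or DESeq2, which was 0.989 or more under every alternative. The 115 is therefore not read as a measure of robustness. A further 36 leave out 1 replicate and are not counted, since a mean of 2 or 3 ratios cannot then move by 1 SD. A number of regions that pass in all replicates cannot then fall but could rise. It stayed at 2 for gFLM, 2 for iFLMbeta and 0 for iFLMdelta. With a pseudocount of 5 reads the gFLM ratio was 1.31 at the upstream SPT region and 2.38 at the ALC start. With it 3 low-count iFLMbeta regions moved by more than 1 SD to below 0. They lie 910 bp past ALC (-0.24), 3105 bp past SPT (-0.31) and 2129 bp upstream of ALC (-0.41). Within 1 SD, the iFLMbeta region 856 bp past SPT (-0.68) and the gFLM region at the SPT start (-0.41) also fell below 0. So did the iFLMdelta region 579 bp upstream of SPT (-0.29). With a limit of 3000 bp the upstream SPT regions drop out by construction, and 1 region passed in gFLM and 1 in iFLMbeta. Leaving out 1 replicate at a time, the ratio ran from 2.81 to 3.74 at ALC and 1.89 to 2.57 at SPT upstream in gFLM, and from 1.27 to 1.88 and 1.00 to 1.56 in iFLMbeta. At the iFLMbeta region 856 bp past SPT it ran from -1.30 to 1.68. With the gFLM replicate block the differences between gFLM and iFLMbeta were 1.94 at the ALC start, 0.64 upstream of SPT and 0.79 at the SPT start, and the block changed no call. Without 1 library at a time they ran from 1.05 to 2.47, 0.42 to 1.00 and 0.50 to 1.27, with adjusted p by edgeR of 0.989 or more. The control libraries held 0 to 20 reads at the 4 passing regions, which limits the precision of every ratio.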
